A study of Mus musculus with 18 samples.

Results

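The extracellular matrix and stellate cell genes described here are 43 named genes of collagens, other matrix proteins, enzymes that remodel the matrix, and markers of hepatic stellate cells and fibroblasts. They were listed by name, with earlier results of these data known, and all 43 were among the 25266 gene symbols in the liver RNA profiles. Liver RNA of 18 male mice was measured by sequencing and given as RPKM, the reads of a gene scaled to its length in kilobases and to the depth of the library. The FF mice carry floxed Ppp6r3 alleles and no Cre, and the LKO mice carry the same alleles with Cre driven by the albumin promoter, so that SAPS3, the regulatory subunit of protein phosphatase 6 that Ppp6r3 encodes, is lost from hepatocytes. From the age of 8 weeks, the mice received a control diet (CD, 10 kcal% fat) or, over the same 16 weeks, a high fat diet (HFD) with 32.5 kcal% fat. The groups were FF CD (n = 4), LKO CD (n = 4), FF HFD (n = 5) and LKO HFD (n = 5), all on a C57BL/6 background and from 1 tissue, whole liver.

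The space between hepatocytes and sinusoids holds a thin matrix of type IV collagen, laminin and nidogen, with fibrillar collagens around vessels and portal tracts. Hepatic stellate cells store retinoids in that space, and after injury they turn into myofibroblasts that express alpha smooth muscle actin and secrete type I and type III collagen. TGF-beta and PDGF drive that switch, and TIMP proteins hold back the metalloproteinases that would degrade the new matrix. Stellate cells, fibroblasts and endothelial cells do not use the albumin promoter, so the genes described here lie mostly outside the cells in which Ppp6r3 was deleted. In RNA of whole liver, more or fewer cells of a type and more or less RNA per cell cannot be told apart.

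Ppp6r3 stood at 8.38 to 11.0 RPKM in the FF CD mice and 7.55 to 8.82 in the FF HFD mice, against 3.88 to 4.08 in the LKO CD mice and 4.22 to 4.87 in the LKO HFD mice. The genotypes did not overlap. Library depth, read from the value that a single read takes in single-exon genes at low RPKM, ran from 23.4 to 37.0 M reads. In a clustering over all 11090 tested genes, FF HFD mice 2 to 5 formed 1 branch and FF HFD mouse 1 fell in the other branch, of 14 mice, so counts are also given without that mouse. A gene was tested when its mean over the 18 mice reached 0.5 RPKM, and called when limma gave an adjusted p under 0.05 and the fold change of RPKM + 1 was over 1.5. Of the 43 genes, 35 were tested. The 8 under the filter were Col5a2, Fbn1, Eln, Thbs1, Timp1, Lox, Loxl1 and Hgf.

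Levels differed widely among the 35 tested genes. Per kilobase, Col18a1, the gene of the basement membrane collagen from which endostatin is cut, had the highest level, at 86.9 to 145.8 RPKM over the 18 mice, and it is made by hepatocytes as well as by vascular cells. Dcn (decorin) followed at 42.9 to 85.5 RPKM, then Ecm1 at 27.1 to 55.4 RPKM and Bgn (biglycan) at 24.2 to 57.1 RPKM. Retinoid storing stellate cells were visible in every mouse through Lrat, the enzyme that esterifies retinol, at 1.83 to 5.13 RPKM and through Reln (reelin) at 2.15 to 4.49 RPKM. Of the 11 genes listed as marks of the activated myofibroblast, Col3a1 (2.06 to 14.7 RPKM), Tagln (2.55 to 8.25), Col1a2 (1.10 to 7.20) and Postn (1.11 to 5.76) were at levels like that of Lrat, and others were lower. Acta2 ranged from 0.295 to 1.68 RPKM, Timp1 from 0.0333 to 0.856 RPKM and Lox from 0 to 0.121 RPKM. In reads, Timp1 rested on 1 to 20 per library and Lox on 0 to 15. The bile duct gene Cftr stayed at or under 0.0574 RPKM, and the mesothelial genes Msln and Upk3b at or under 1.26 RPKM.

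Some of the matrix genes were called higher with HFD in FF mice, and most were not called, in part through the fold threshold. Of the 35 tested genes, 12 were called higher in FF HFD than in FF CD mice and none lower, beside 5.11% of all tested genes called higher. They were the fibrillar collagen genes Col1a1, Col1a2 and Col3a1, the basement membrane genes Col4a1, Col4a2 and Nid1, Col14a1, the matricellular genes Sparc and Tgfbi, the protease inhibitor Timp3, and the cytoskeletal genes Tagln and Vim. Over all tested genes 567 were called higher and 165 lower, and 423 and 224 after quantile normalization, where 10 of the 35 were called higher and none lower. All 35 had a log2 fold change above 0 (34 after quantile normalization), as did 63.2% of all tested genes. Their median was 0.44, beside 0.07 for all tested genes. In 14 of the 35 every FF HFD mouse was higher than every FF CD mouse, beside 14.0% of all tested genes. With the adjusted p alone, 19 of 35 passed, beside 20.6% of all tested genes. Without FF HFD mouse 1 the count of called genes was 13.

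Of the 6 role groups, the fibrillar collagens had the largest median log2 fold change, 1.05 over the 4 tested. Col1a1, which encodes the alpha 1 chain of type I collagen (chr11:94936224-94953042, plus strand), stood at 0.504, 1.05, 1.20 and 1.44 RPKM in the FF CD mice and at 1.77, 6.23, 4.18, 3.18 and 3.28 RPKM in the FF HFD mice. All FF HFD mice exceeded all FF CD mice, with FF HFD mouse 1 nearest to them and mouse 2 far above. The means were 1.05 ± 0.396 (SD, n = 4) and 3.73 ± 1.64 (SD, n = 5), a ratio of 3.56, and the log2 fold change of RPKM + 1 was 1.16 (SE 0.27, adjusted p = 0.00539). Col1a2, the alpha 2 chain of the same trimer (chr6:4504814-4541544, plus strand), had 1.18, 1.94, 1.72 and 2.22 RPKM in the FF CD mice and 2.37, 7.20, 4.73, 3.91 and 4.11 RPKM in the FF HFD mice. The groups did not overlap, although FF HFD mouse 1 lay just above FF CD mouse 4. Its log2 fold change was 0.94 (SE 0.26, adjusted p = 0.0147). Col3a1, type III collagen (chr1:45311538-45349706, plus strand), showed 2.60, 3.54, 3.66 and 4.56 RPKM under CD and 6.42, 14.7, 11.7, 8.57 and 8.07 RPKM under HFD. Again the FF groups did not overlap, and its log2 fold change of 1.21 (SE 0.27, adjusted p = 0.00452) was the largest of the 35 genes on the RPKM + 1 scale. With a pseudocount of 0.1 Col1a1 (1.71) and Col4a1 (1.49) were above Col3a1. The minor fibrillar chain Col5a1, which starts and limits fibril growth, had a log2 fold change of 0.44 (SE 0.10, adjusted p = 0.00616), under the fold threshold.

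The basement membrane genes included the type IV collagen pair, which lies head to head on chromosome 8. Col4a1 (chr8:11198423-11312826, minus strand) stood at 2.43, 1.55, 1.65 and 2.78 RPKM in the FF CD mice and at 3.63, 7.41, 7.57, 6.43 and 5.45 RPKM in the FF HFD mice. Each FF HFD mouse was above all FF CD mice, and the log2 fold change was 1.18 (SE 0.19, adjusted p = 0.000472). Col4a2 (chr8:11312805-11449287, plus strand) had 1.85, 1.02, 1.58 and 2.65 RPKM under CD and 2.60, 4.24, 5.31, 4.0 and 2.91 RPKM under HFD. Here FF HFD mouse 1 fell below FF CD mouse 4, so the groups overlapped, and the log2 fold change was 0.80 (SE 0.18, adjusted p = 0.00385). The first exons of the pair share 22 bases on opposite strands, and whether reads were counted by strand is not given in the sources used here.

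Nid1, the nidogen that links laminin to type IV collagen, measured 1.54, 1.08, 1.11 and 1.96 RPKM in the FF CD mice and 1.82, 3.97, 4.97, 3.38 and 2.37 RPKM in the FF HFD mice. Only FF HFD mouse 1 fell within the CD range, and the log2 fold change was 0.80 (SE 0.17, adjusted p = 0.003). Col14a1, a collagen that sits on the surface of fibrils, had 3.02, 3.92, 4.18 and 4.52 RPKM under CD and 4.68, 7.67, 8.65, 7.28 and 5.96 RPKM under HFD. There was no overlap, with FF HFD mouse 1 again the nearest, and the log2 fold change was 0.66 (SE 0.17, adjusted p = 0.00973). Its fold fell under the threshold without FF CD mouse 1, without FF HFD mouse 3 and after quantile normalization. The type VI collagen genes had log2 fold changes of 0.40 (Col6a1, adjusted p = 0.166), 0.30 (Col6a2, adjusted p = 0.175) and 0.45 (Col6a3, adjusted p = 0.049), and none was called. The laminin chains Lamb1 (0.35, adjusted p = 0.0253) and Lamc1 (0.36, adjusted p = 0.0183) passed the adjusted p alone. Col15a1 (0.28, adjusted p = 0.302) and Col18a1 (0.03, adjusted p = 0.886) did not pass.

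Among the matricellular proteins, Sparc, a secreted collagen binding protein, was at 11.0, 10.5, 10.7 and 14.5 RPKM in the FF CD mice and at 19.4, 29.6, 28.5, 23.8 and 22.1 RPKM in the FF HFD mice. The lowest FF HFD mouse was well clear of the highest FF CD mouse, and the log2 fold change was 1.02 (SE 0.17, adjusted p = 0.000652). Tgfbi, a secreted protein that TGF-beta induces, had 10.5, 10.3, 8.82 and 14.5 RPKM under CD and 14.2, 20.1, 21.4, 17.0 and 16.7 RPKM under HFD. FF HFD mouse 1 fell just below FF CD mouse 4. Its log2 fold change was 0.66 (SE 0.19, adjusted p = 0.0188), and its call was lost without FF CD mouse 3 (adjusted p = 0.0742) and after quantile normalization. Spp1 (osteopontin), made by bile duct cells and macrophages, varied from 13.4 to 61.3 RPKM among the 18 mice, and its log2 fold change of 0.74 (SE 0.40, adjusted p = 0.207) did not pass. The small proteoglycans Bgn (0.53, adjusted p = 0.0824), Dcn (0.34, adjusted p = 0.255) and Lum (0.24, adjusted p = 0.447) did not pass either.

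Of the remodelling genes, 1 of 5 tested was called. Timp3, a metalloproteinase inhibitor that binds to the matrix, had 4.71, 3.94, 5.19 and 6.38 RPKM in the FF CD mice and 6.60, 10.9, 9.79, 11.1 and 8.34 RPKM in the FF HFD mice. The groups did not overlap, by a small margin at FF HFD mouse 1, and the log2 fold change was 0.77 (SE 0.20, adjusted p = 0.0105). Timp3 lies within Syn3, which runs on the other strand and shares 1733 exon bases with it. The metalloproteinases Mmp2 (0.19, adjusted p = 0.441) and Mmp14 (0.17, adjusted p = 0.387) did not pass, and the crosslinking enzyme Loxl2 (0.40, adjusted p = 0.0161) passed the adjusted p alone. Timp1, the inhibitor that activated stellate cells secrete, fell under the filter, at 0.140, 0.0448, 0.192 and 0.0443 RPKM in the FF CD mice and 0.122, 0.604, 0.856, 0.162 and 0.356 RPKM in the FF HFD mice. In reads these were 4, 1, 4 and 1 under CD and 4, 14, 20, 4 and 8 under HFD, and the groups overlapped. At an adjusted p of 0.0781 in the fit with no filter it did not pass, and with 2 of the 4 CD values under the floor of 3 reads no fold is given.

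The contractile and cytoskeletal genes split. Tagln (transgelin, SM22), an actin binding protein of smooth muscle and myofibroblasts, stood at 2.63, 2.65, 3.06 and 2.88 RPKM in the FF CD mice and at 6.11, 6.07, 5.60, 8.25 and 6.94 RPKM in the FF HFD mice. The CD mice lay close together and far below the HFD mice, and its log2 fold change was 0.99 (SE 0.14, adjusted p = 0.000135). Vim (vimentin), the intermediate filament of mesenchymal cells, had 5.16, 6.18, 7.34 and 8.19 RPKM under CD and 9.61, 15.8, 11.5, 12.8 and 11.6 RPKM under HFD. It showed no overlap and a log2 fold change of 0.78 (SE 0.20, adjusted p = 0.011). Acta2, the alpha smooth muscle actin that defines the myofibroblast, had 1.28, 0.591, 0.599 and 0.295 RPKM under CD and 1.44, 1.08, 1.07, 1.51 and 1.68 RPKM under HFD. FF CD mouse 1 lay among the HFD mice, and the log2 fold change of 0.50 (SE 0.16, adjusted p = 0.0298) stayed under the fold threshold. Des (desmin) did not pass (0.21, adjusted p = 0.101). Part of the exons of Tagln overlap Pcsk7 and an unnamed transcript on the other strand, so reads of these cannot be told apart without strand.

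Of the 4 tested receptors and ligands, none was called. Tgfb1, which encodes the TGF-beta ligand that activates stellate cells, had 1.86, 1.47, 1.59 and 2.36 RPKM in the FF CD mice and 2.29, 3.19, 4.15, 3.66 and 2.86 RPKM in the FF HFD mice. Only FF HFD mouse 1 lay within the CD range, and the log2 fold change of 0.58 (SE 0.14, adjusted p = 0.00884) was just under the fold threshold. The PDGF receptors Pdgfra (0.08, adjusted p = 0.516) and Pdgfrb (0.28, adjusted p = 0.116) and the stellate cell gene Reln (0.11, adjusted p = 0.674) did not pass.

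The other 7 genes under the filter were read from the fit with no filter, and none passed the fold threshold. Col5a2, a minor chain of fibrillar collagen, had 0.221 to 0.375 RPKM in the FF CD mice, 0.196 to 0.397 in LKO CD, 0.539 to 0.824 in FF HFD and 0.233 to 0.438 in LKO HFD mice. The FF HFD mice lay above all others. Its log2 fold change was 0.37 (adjusted p = 0.00151) for FF HFD against FF CD and -0.37 (adjusted p = 0.00434) for LKO HFD against FF HFD. Fbn1 (fibrillin 1) ranged from 0.125 to 0.384 RPKM over the 18 mice and had values of 0.17 (adjusted p = 0.00198) and -0.15 (adjusted p = 0.0181) in the same comparisons. For FF HFD against FF CD, the matricellular Thbs1 (0.22, adjusted p = 0.023) passed the adjusted p alone, while Eln (elastin, 0.15, adjusted p = 0.0666), the crosslinking enzyme Loxl1 (0.18, adjusted p = 0.287) and the growth factor Hgf (0.11, adjusted p = 0.357) did not pass. Lox, another crosslinking enzyme, had 5, 0, 1 and 0 reads in the FF CD mice and 7, 5, 0 and 1 in the LKO CD mice. It had 7 to 15 reads in the FF HFD mice and 2 to 5 in the LKO HFD mice. In RPKM the FF HFD mice overlapped neither the FF CD nor the LKO HFD mice. LKO CD mouse 1, at 0.0570 RPKM, lay within the FF HFD range of 0.0511 to 0.121 RPKM. The adjusted p was 0.00981 for FF HFD against FF CD and 0.147 for LKO HFD against FF HFD. At so few reads no fold is given.

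**Figure D1:**
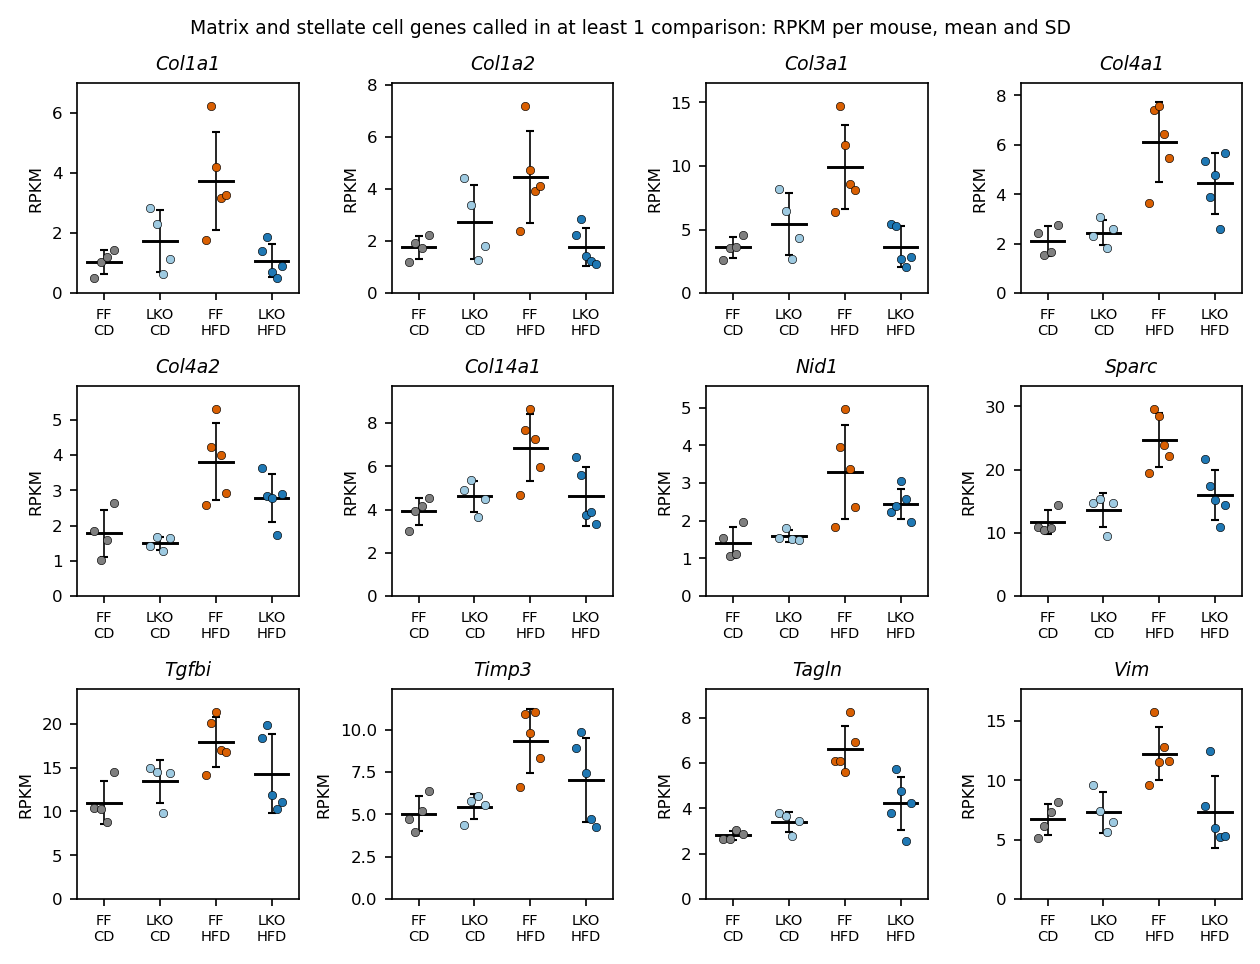
RPKM of the 12 genes called in at least 1 comparison, with a panel for each gene, a point for each mouse, and the mean and SD of each group as a line and bar on axes that start at 0. FF HFD mice sit highest in each panel on average, and for Col1a1, Col1a2 and Col3a1 the LKO HFD mice sit near the FF CD mice.

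In LKO mice the same diet left no gene of the 35 called. LKO HFD and LKO CD mice differed in 1.27% of all tested genes, in 0 of these 35, and in 7 of the 35 with an unadjusted p under 0.05 by limma, beside 22.3% of all tested genes. The log2 fold change was above 0 in 19 of the 35, beside 65.8% of all tested genes, with a median of 0.02 beside 0.07 over all tested genes. After quantile normalization it was above 0 in 14. Without LKO HFD mouse 4 there were 2 calls, and without FF HFD mouse 1, which enters through the shared estimate of spread, 1 call.

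Type I and type III collagen genes in LKO mice varied more under CD than they moved with HFD. Col1a1 measured 2.85, 2.30, 0.638 and 1.15 RPKM in the LKO CD mice and 1.39, 1.89, 0.719, 0.499 and 0.910 RPKM in the LKO HFD mice. Col1a2 ran at 4.42, 3.39, 1.29 and 1.82 RPKM in LKO CD mice and at 2.25, 2.85, 1.43, 1.26 and 1.10 RPKM in LKO HFD mice. Col3a1 ran at 8.21, 6.49, 2.65 and 4.36 RPKM and at 5.43, 5.30, 2.65, 2.06 and 2.84 RPKM. LKO CD mice 1 and 2 were the highest for all 3 genes, LKO CD mouse 3 was low for all 3, and the diets overlapped. The log2 fold changes were -0.35 (95% interval -0.92 to 0.21, adjusted p = 0.465), -0.38 (-0.92 to 0.16, adjusted p = 0.401) and -0.45 (-1.02 to 0.13, adjusted p = 0.354) in that order.

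On the RPKM + 1 scale the largest differences with diet in LKO mice, none of them called, were in the type IV collagen pair and Lum. As a ratio of mean RPKM, Mmp2 differed most, 2.01 times lower under HFD (adjusted p = 0.170). Col4a1 had 2.30, 3.09, 1.84 and 2.59 RPKM in the LKO CD mice and 5.34, 3.88, 4.78, 2.60 and 5.66 RPKM in the LKO HFD mice. All but LKO HFD mouse 4 exceeded the CD mice. Its log2 fold change was 0.64 (95% interval 0.23 to 1.04, adjusted p = 0.0688). Col4a2 had 1.41, 1.67, 1.27 and 1.63 RPKM under CD and 3.64, 2.84, 2.78, 1.74 and 2.88 RPKM under HFD. There was no overlap, but the adjusted p of 0.0674 missed the threshold at a log2 fold change of 0.58 (95% interval 0.21 to 0.95). Lum (lumican), a proteoglycan that spaces collagen fibrils, had 6.97, 4.81, 3.16 and 3.70 RPKM under CD and 2.76, 4.69, 2.43, 2.66 and 1.91 RPKM under HFD. The groups overlapped through LKO HFD mouse 2, and the log2 fold change was -0.53 (adjusted p = 0.142). In 2 of the 35 genes, Col4a2 and Nid1, every LKO HFD mouse was above every LKO CD mouse, beside 7.71% of all tested genes.

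For the other genes called in FF mice, the LKO values ran as follows. Nid1 had 1.53, 1.82, 1.53 and 1.49 RPKM in the LKO CD mice and 2.22, 2.38, 3.05, 2.58 and 1.97 RPKM in the LKO HFD mice, at a log2 fold change of 0.40 (adjusted p = 0.167). Sparc had 14.8, 15.4, 9.57 and 14.8 RPKM under CD and 21.7, 17.5, 15.3, 10.9 and 14.4 RPKM under HFD, at 0.20 (adjusted p = 0.521). Both leaned upward, Nid1 without overlap and Sparc with LKO HFD mice 3, 4 and 5 inside the CD range. Tagln had 3.78, 3.65, 2.77 and 3.43 RPKM under CD and 3.79, 5.73, 4.75, 2.55 and 4.24 RPKM under HFD, at 0.22 (adjusted p = 0.385). Timp3 had 4.40, 5.77, 6.08 and 5.58 RPKM under CD and 8.94, 9.87, 7.46, 4.71 and 4.24 RPKM under HFD, at 0.26 (adjusted p = 0.458). LKO HFD mice 4 and 5 were low for Timp3 and mice 1 to 3 were above the CD mice. Col14a1 had 4.91, 5.38, 3.65 and 4.49 RPKM under CD and 6.44, 5.62, 3.75, 3.91 and 3.32 RPKM under HFD, at -0.02 (adjusted p = 0.955). Tgfbi had 14.9, 14.5, 9.81 and 14.4 RPKM under CD and 18.4, 19.9, 11.8, 10.3 and 11.1 RPKM under HFD, at 0.05 (adjusted p = 0.893). Each spread widened under HFD, with LKO HFD mice 1 and 2 high and the other 3 low.

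Vim had 9.59, 7.41, 5.62 and 6.53 RPKM in the LKO CD mice and 7.84, 12.5, 5.96, 5.21 and 5.28 RPKM in the LKO HFD mice. LKO HFD mouse 2 stood well above the other mice of its group, and the log2 fold change was -0.03 (adjusted p = 0.944). Acta2 had 1.05, 0.984, 1.67 and 0.946 RPKM under CD and 0.613, 0.707, 1.01, 0.340 and 1.20 RPKM under HFD, at -0.29 (adjusted p = 0.280). Tgfb1 had 1.44, 1.88, 1.86 and 2.33 RPKM under CD and 2.81, 3.94, 2.50, 2.78 and 1.94 RPKM under HFD, at 0.39 (adjusted p = 0.129). Acta2 leaned down and Tgfb1 up, with overlap in both. Timp1 stayed at 0.135, 0.159, 0.0417 and 0.0413 RPKM under CD and 0.271, 0.0904, 0.0333, 0.0444 and 0.184 RPKM under HFD, which were 1 to 6 reads per library.

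**Figure D2:**
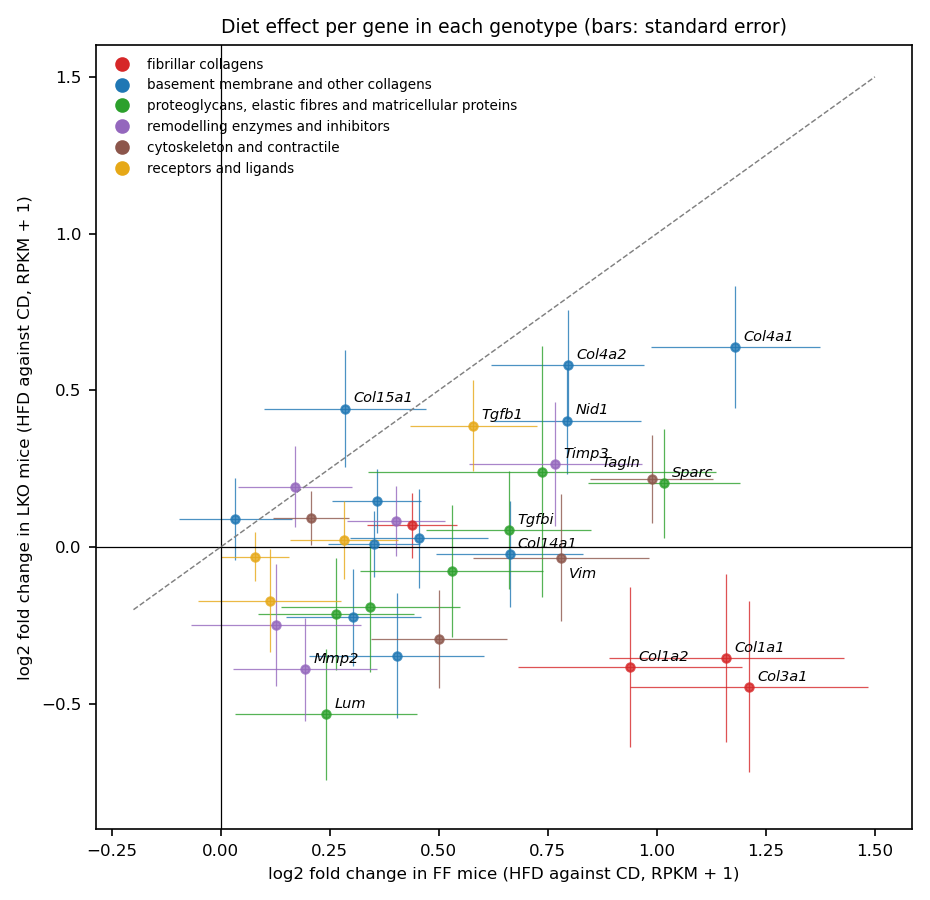
The log2 fold change of RPKM + 1 with HFD for each of the 35 tested genes, in FF mice on the horizontal axis and in LKO mice on the vertical axis, with standard errors as bars, colours for roles and a dashed line of equal change. The points for Col1a1, Col1a2 and Col3a1 lie at 0.94 to 1.21 in FF mice and at -0.45 to -0.35 in LKO mice, while Col4a1 and Col4a2 lie above 0 on both axes.

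No gene of the 35 was called between LKO CD and FF CD mice, beside 0.225% of all tested genes, and 1 of the 35 (Acta2) had an unadjusted p under 0.05 by limma, beside 7.67% of all tested genes. The log2 fold change was above 0 in 33 of 35, beside 61.7% of all tested genes, with a median of 0.16 beside 0.03 over all tested genes, and above 0 in 31 after quantile normalization. The largest were Col3a1 (0.42, 95% interval -0.19 to 1.02, adjusted p = 0.825), Acta2 (0.37, 0.03 to 0.72, adjusted p = 0.574) and Col1a2 (0.36, -0.20 to 0.93, adjusted p = 0.858). LKO CD mice 1 and 2 held the highest Col3a1 and Col1a2 levels of the 8 CD mice, and LKO CD mouse 3 lay within the FF CD range for both.

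Under HFD 5 of the 35 genes were called lower in LKO than in FF mice and none higher, beside 1.17% of all tested genes called lower. They were Col1a1, Col1a2, Col3a1, Sparc and Vim. The log2 fold change was above 0 in 3 of the 35 (Col15a1, Col18a1 and Mmp14), beside 57.4% of all tested genes. The median was -0.31 beside 0.03 over all tested genes. In 1 of the 35, Col3a1, every LKO HFD mouse was below every FF HFD mouse, beside 2.02% of all tested genes. Without FF HFD mouse 1 the count was 6.

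Col3a1 averaged 3.66 ± 1.58 RPKM (SD, n = 5) in LKO HFD and 9.88 ± 3.29 (SD, n = 5) in FF HFD mice, a ratio of 2.70 between FF and LKO. Its log2 fold change was -1.24 (SE 0.26, adjusted p = 0.0109 by limma), the exact two-sided permutation p was 0.00794, the smallest that 5 against 5 mice allow, and the call held under all 8 alternatives and with each of the 18 mice left out in turn. Col1a1 averaged 1.08 ± 0.557 against 3.73 ± 1.64 RPKM, and only LKO HFD mouse 2 rose above the lowest FF HFD mouse, which was mouse 1. Its log2 fold change was -1.15 (SE 0.25, adjusted p = 0.0157), and the adjusted p was 0.0507 without FF HFD mouse 2. Col1a2 averaged 1.78 ± 0.746 against 4.46 ± 1.76 RPKM, with a log2 fold change of -0.96 (SE 0.24, adjusted p = 0.0334). LKO HFD mouse 2 again exceeded FF HFD mouse 1.

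Sparc averaged 16.0 ± 3.99 RPKM in LKO HFD against 24.7 ± 4.31 in FF HFD mice, at a log2 fold change of -0.62 (SE 0.16, adjusted p = 0.0416). LKO HFD mouse 1 was above FF HFD mouse 1, and the other 4 were below all FF HFD mice. Vim averaged 7.35 ± 3.05 against 12.3 ± 2.27 RPKM, at -0.72 (SE 0.19, adjusted p = 0.042), with LKO HFD mouse 2 inside the FF HFD range. With each of the 18 mice left out in turn, Sparc was still called in 7 fits and Vim in 8, and mice whose loss ended a call included CD mice of both genotypes (adjusted p up to 0.114 and 0.116). Col1a2 was called in 11 (up to 0.0941), and each loss came with an HFD mouse left out. The calls of Sparc, Vim and Col1a2 were also lost with no filter, those of Sparc and Vim with the 2 groups compared alone, and that of Sparc with the replicate block. Tagln passed the adjusted p (0.0232) at a log2 fold change of -0.56, under the fold threshold. The genes called in FF mice with diet and not called here included Col4a1 (-0.38, 95% interval -0.76 to 0.00, adjusted p = 0.264), Col4a2 (-0.34, -0.69 to 0.01, adjusted p = 0.268), Nid1 (-0.28, -0.61 to 0.06, adjusted p = 0.351) and Timp3 (-0.40, -0.80 to -0.01, adjusted p = 0.246).

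The 250 bases before the start of 4 of these 5 genes (not Col1a1) were searched because the genes moved together. They come from RefSeq (GRCm38.p6), and 29 of the 43 genes had an entry. A CCAAT box (CCAAT or ATTGG), a GC box (GGGCGG or CCGCCC) and a TATA box (TATAAA or TTTATA) were looked for on both strands, and no match overlapped another. Other annotated transcripts of Col1a2, Sparc and Vim have exons in these windows, over 127, 238 and 250 bases, and only the longest stretch outside exons is printed. It is chr6:4505370-4505492 for Col1a2 (123 bases) and the whole window, chr1:45311288-45311537, for Col3a1, both on the plus strand and 5′ to 3′ with the matches in capitals.
Col1a2: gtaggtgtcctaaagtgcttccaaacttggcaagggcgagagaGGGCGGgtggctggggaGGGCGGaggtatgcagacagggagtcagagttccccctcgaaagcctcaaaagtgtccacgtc
Col3a1: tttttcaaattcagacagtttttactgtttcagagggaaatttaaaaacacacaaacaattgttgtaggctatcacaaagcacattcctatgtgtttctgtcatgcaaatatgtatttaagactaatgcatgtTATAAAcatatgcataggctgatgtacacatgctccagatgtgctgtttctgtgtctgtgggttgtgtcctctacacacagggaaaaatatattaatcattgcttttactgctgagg
Counted from the start, the Col1a2 stretch runs from -248 to -126, with GGGCGG at -205 and -188, and Col3a1 held TATAAA at -117. In the bases not printed, Col1a2 held CCAAT at -109, and Vim held CCAAT at -196, ATTGG at -94 and TATAAA at -32. The Sparc window held none of these letters. Over all 32851 windows of 250 bases, 33.8% held a CCAAT box, 32.7% a GC box and 12.4% a TATA box. G and C made up 62.0% of the Col1a2 window, 58.4% for Vim, 54.0% for Sparc and 35.2% for Col3a1, beside a median of 52.4% over all windows. No motif was shared by the 4 windows.

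Whether the diet effect differed between genotypes was tested with the interaction, the diet effect in LKO minus that in FF mice. It was called for 3 of the 35 genes, beside 2.44% of all tested genes, and was below 0 in all 3. Col3a1 had a difference of log2 fold changes of -1.66 (SE 0.39, adjusted p = 0.0263), Col1a1 of -1.51 (SE 0.38, adjusted p = 0.0364) and Tagln of -0.77 (SE 0.20, adjusted p = 0.0427). Col1a2 (-1.32, adjusted p = 0.0563) and Acta2 (-0.79, adjusted p = 0.0602) missed the threshold. For Col4a1 (-0.54, 95% interval -1.12 to 0.03, adjusted p = 0.334) and Col4a2 (-0.22, -0.74 to 0.30, adjusted p = 0.706) no difference was detected, and the intervals leave room for one. The number called fell to 0 without FF CD mouse 3, LKO CD mouse 2 or FF HFD mouse 2, and was 6 when LKO HFD mouse 2 was left out. The FF HFD mice enter 3 of these comparisons, so their calls are not independent.

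**Figure D3:**
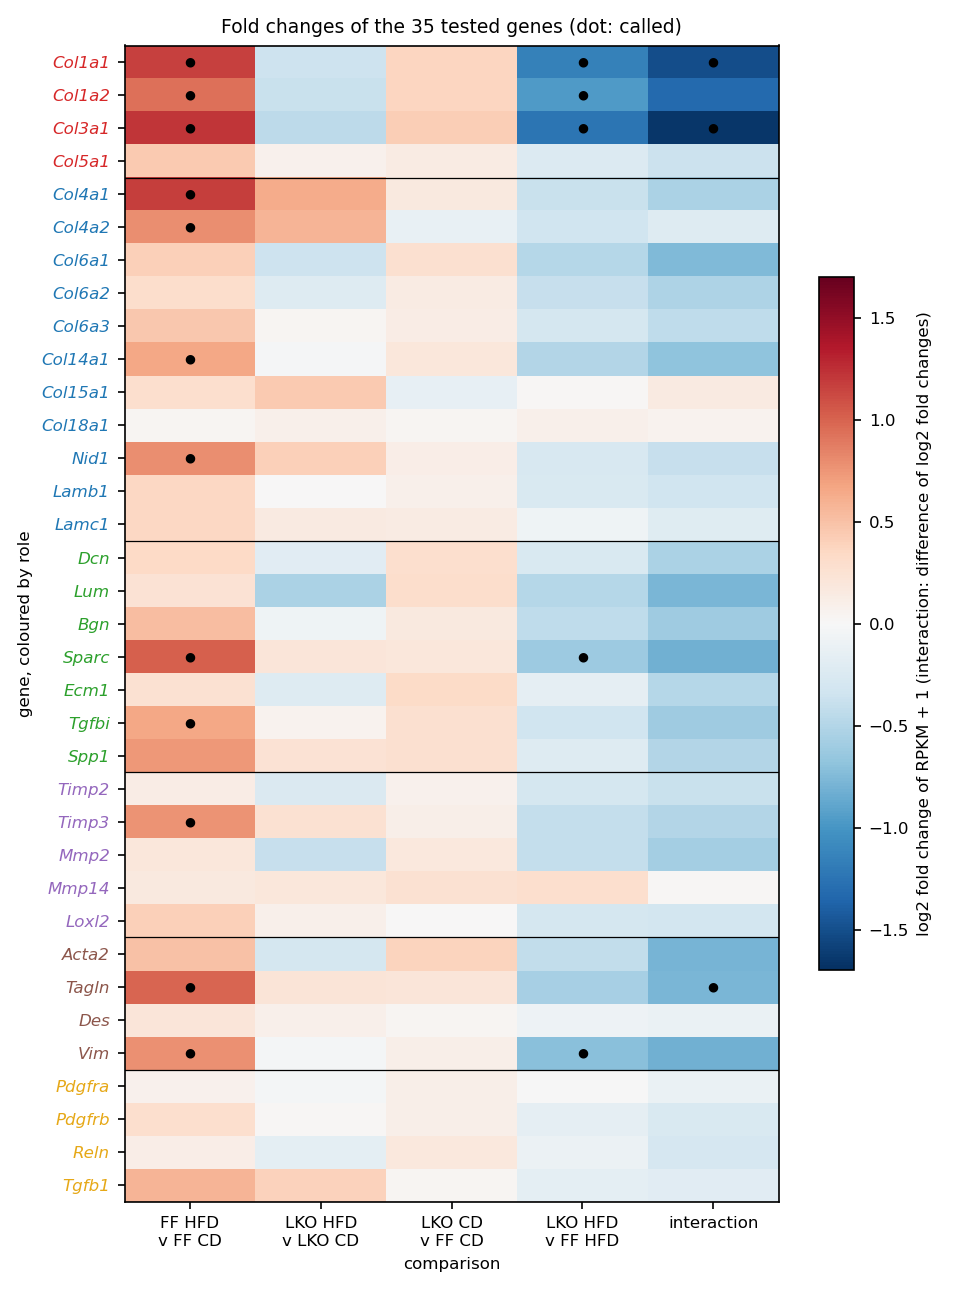
Colour map of the log2 fold change of RPKM + 1 for the 35 tested genes (vertical axis, grouped and coloured by role) in 5 comparisons (horizontal axis), with dots on the genes called. Dots fill 12 cells of the FF diet column, none of the LKO diet and CD genotype columns, 5 of the HFD genotype column and 3 of the interaction column.

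The genes varied together among mice of 1 group. Deviations of log2(RPKM + 1) from the group mean were correlated over the 18 mice, which share library depth and scaling, and the median Pearson r was 0.56 over the 595 pairs of the 35 genes beside 0.13 over all pairs of tested genes. Col1a1, Col1a2 and Col3a1 formed the tightest trio, with r of at least 0.945. Col4a1 and Col4a2 had r = 0.875 with each other and 0.407 to 0.570 with that trio. Acta2 went against the others, with a median r of -0.43 to the other 34 genes, as did Col15a1 at -0.36, while Tagln had 0.33. FF HFD mouse 2 was the highest of its group for 19 of the 35 genes and FF HFD mouse 1 the lowest for 21. LKO CD mouse 3 was the lowest for 29, and LKO HFD mice 5 and 4 were the lowest for 18 and 15.

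**Figure D4:**
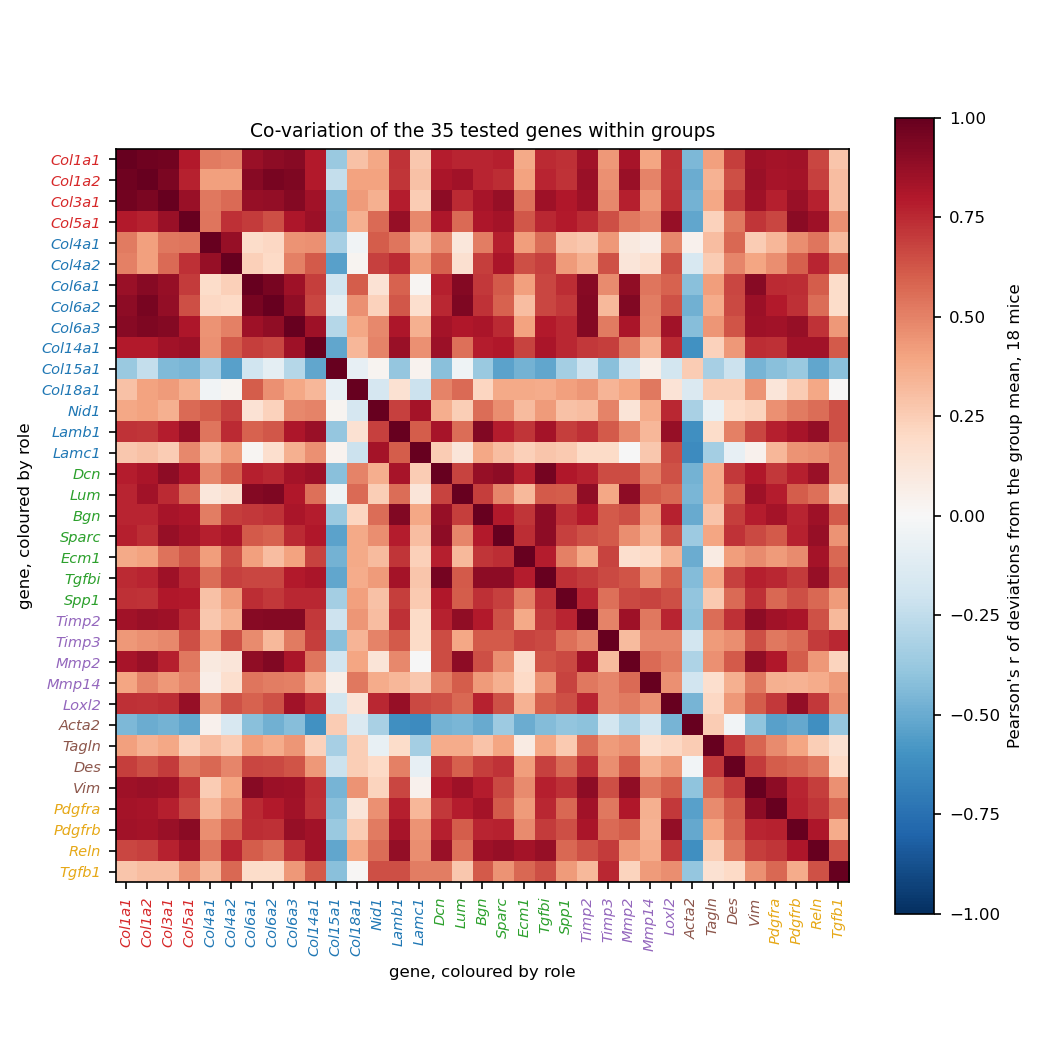
Pearson's r between each pair of the 35 tested genes (both axes, coloured by role), from deviations of log2(RPKM + 1) from the group mean in 18 mice. Most cells are red (88.6% of pairs above 0), and the rows of Acta2 and Col15a1 are mostly blue.

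The balance of the type I collagen chains was compared as a ratio within each mouse. Col1a1 per Col1a2 in RPKM averaged 0.579 ± 0.121 (SD, n = 4) in FF CD, 0.612 ± 0.0813 (n = 4) in LKO CD, 0.821 ± 0.0553 (n = 5) in FF HFD and 0.601 ± 0.162 (n = 5) in LKO HFD mice. All FF HFD mice, at 0.746 to 0.885, were above all FF CD mice, at 0.427 to 0.700. The exact permutation p was 0.0159 for FF HFD against FF CD and 0.0317 for LKO HFD against FF HFD, and both were 0.127 after adjustment over the 8 ratio tests, so neither passed.

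Markers of the cell types in liver were summed per mouse and set beside these results. The 19 stellate cell markers, of which 5 are among the 43 genes, summed to 92.6 to 129.8 RPKM in FF CD, 97.9 to 145.6 in LKO CD, 115.6 to 155.6 in FF HFD and 83.1 to 164.4 in LKO HFD mice, and none of the 17 tested was called in any of the 5 comparisons. Dcn, which is among the 43, was the main part of the sum. It averaged 55.9 RPKM in FF CD, 68.4 in LKO CD, 71.1 in FF HFD and 61.4 in LKO HFD mice. The 11 markers of activated myofibroblasts, 7 of them among the 43, summed to 10.3 to 14.1, 11.2 to 22.6, 21.9 to 40.6 and 8.50 to 19.0 RPKM in that order, and of 6 tested 5 were called higher with diet in FF mice and 4 lower in LKO than in FF mice under HFD. Their 4 other genes (Postn, Cthrc1, Fap and Tnc) summed to 1.22 to 2.64, 2.12 to 3.03, 3.58 to 6.11 and 1.499 to 2.47 RPKM, so that FF HFD mice did not overlap the other groups. Postn was the main part of this sum, at means of 1.76, 2.35, 4.14 and 1.94 RPKM. Tnc averaged 0.0681, 0.125, 0.287 and 0.119 RPKM. Fap, which was not highest in FF HFD mice, averaged 0.0352, 0.0626, 0.0514 and 0.0598 RPKM. Cthrc1 was at 0 in all mice but some of FF HFD, where it reached 0.0340 RPKM.

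Genes of the sinusoidal endothelium, which also makes type IV collagen and nidogen, moved with the same diet comparison. Of its 12 markers, 7 were called higher in FF HFD than in FF CD mice, beside 5.11% of all tested genes. In LKO mice 0 were called with diet, beside 1.27% of all tested genes. The median log2 fold changes with diet were 0.80 in FF and 0.50 in LKO mice. None of the 12 was called between genotypes under HFD or for the interaction. Their sum ran from 25.6 to 58.8 RPKM in FF CD and 20.2 to 56.2 in LKO CD mice. Under HFD the sum ran from 65.9 to 111.6 in FF and 52.8 to 73.6 in LKO mice. Of the 16 macrophage markers, 11 were tested, with 4 called higher with diet in FF mice and 1 in LKO mice. Their median log2 fold changes with diet were 0.60 in FF and 0.55 in LKO mice. Here too, none was called between genotypes under HFD or for the interaction. Macrophage sums were 82.8 to 111.8 RPKM in FF CD and 74.4 to 113.7 in LKO CD mice. Under HFD they were 96.2 to 207.6 in FF and 105.6 to 187.3 in LKO mice. The 7 smooth muscle markers, which include Acta2 and Tagln, summed to 4.70 to 5.93, 6.27 to 6.69, 9.05 to 12.3 and 4.48 to 8.51 RPKM. Tagln was the main part, at means of 2.80 RPKM in FF CD and 6.59 in FF HFD mice. In those groups Smtn averaged 0.927 and 1.41 RPKM, Acta2 0.691 and 1.35, and Actg2 0.110 and 0.239. Myh11 averaged 0.331 and 0.415 RPKM, Lmod1 0.097 and 0.131, and Cnn1 0.0883 and 0.0876. Portal fibroblast and mesothelial markers were low, at 2.27 to 5.45 RPKM in sum, with 1 of 12 tested and none called, and the 9 bile duct markers summed to 20.1 to 73.9 RPKM, with 0 of 4 called and Spp1 as the main part. Lymphocyte markers summed to 2.73 to 6.19 RPKM, with 0 of 3 called. Of the 9 hepatocyte markers 3 were called lower with diet in FF mice and 1, Apoa1, higher in LKO than in FF mice under HFD. The part of these cell types in the results was not tested.

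Fat tissue also makes type I, III and VI collagen. The adipocyte genes Adipoq, Plin1 and Lep summed to 0 RPKM in the 8 CD mice, to 0.0527 or less in the LKO HFD mice, and to 1.13 in FF HFD mouse 4 against 0.0309 or less in the other FF HFD mice. Fabp4, which adipocytes share with endothelium and macrophages, was 1 of 2 tested genes of the fat tissue list and rose with diet in FF mice (1.97) and in LKO mice (1.08). Under HFD it was called lower in LKO than in FF mice (-0.96, adjusted p = 0.0494). The other tested gene, Cfd, was not called. It averaged 0.144 RPKM in FF CD, 0.317 in LKO CD, 1.02 in FF HFD and 1.11 in LKO HFD mice. Without FF HFD mouse 4 the counts were 12 called for diet in FF mice, 2 for genotype under HFD and 1 for the interaction. The count for genotype was also 2 without FF HFD mouse 2 or mouse 5, and 3 without mouse 3. The part of fat tissue in the results was not tested. Blood genes summed to 71.8 to 599.5 RPKM, with the groups overlapping and none of 5 called.

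**Figure D5:**
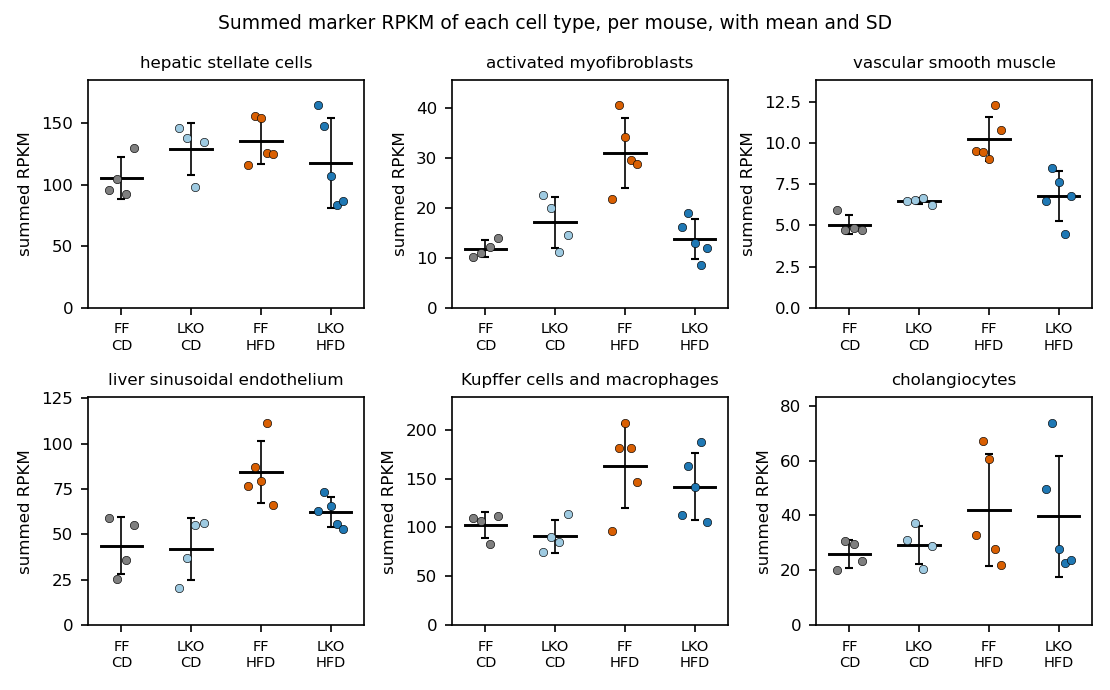
Summed RPKM of the markers of 6 cell types, a point for each mouse, with the mean and SD of each group, on axes that start at 0. The endothelial, myofibroblast and smooth muscle sums of the FF HFD mice are above those of all FF CD mice, and the stellate cell sums of the groups overlap. Tagln is the main part of the smooth muscle sum and Dcn that of the stellate cell sum.

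Other genes of the pathway came from 5 lists that share no gene with the 43. Of 26 tested genes of other collagens and matrix proteins, 4 were called higher with diet in FF mice and 1 lower, beside 1.49% of all tested genes called lower. Postn (periostin), a matricellular protein of activated fibroblasts, is also among the myofibroblast markers above. It rose from 1.76 ± 0.614 to 4.14 ± 0.987 RPKM at a log2 fold change of 0.91 (adjusted p = 0.000697). Ccn2 (connective tissue growth factor), a target of TGF-beta, rose from 1.10 ± 0.389 to 3.62 ± 1.82 RPKM at 1.02 (adjusted p = 0.0188). Col27a1 fell, at -0.91 (adjusted p = 0.00738). Under HFD 3 of the 26 were lower in LKO than in FF mice, among them Postn (-0.80, adjusted p = 0.00457) and Ccn2 (-1.02, adjusted p = 0.0449). The interaction was called for 2, with Postn at -1.10 (adjusted p = 0.00969).

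Of 23 tested genes of matrix processing, 4 were higher and 1 lower with diet in FF mice. Serpinh1, the chaperone that folds procollagen in the endoplasmic reticulum, rose in both genotypes, from 2.21 ± 0.399 to 5.07 ± 0.631 RPKM in FF mice (0.92, adjusted p = 0.000915) and from 2.80 ± 0.874 to 4.82 ± 1.24 RPKM in LKO mice (0.62, adjusted p = 0.0427). Serpine2, a secreted serine protease inhibitor, fell in FF mice (-1.37, adjusted p = 0.00326), with an interaction of 1.94 (adjusted p = 0.0152). None of the 23 was called between LKO and FF mice under HFD.

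Of 21 tested genes of TGF-beta and PDGF signalling, 1 was called with diet in FF mice (Eng, endoglin, a TGF-beta co-receptor of endothelium, 0.68, adjusted p = 0.00742), and 0 in the other 4 comparisons, with a median log2 fold change of 0.06 in FF mice, beside 0.07 and 5.11% called higher over all tested genes. Of 18 tested matrix receptors, 1 was called, Cd36, a receptor for thrombospondin and fatty acids that hepatocytes also express. It rose from 4.12 ± 1.41 to 67.2 ± 13.8 RPKM in FF mice (3.76, adjusted p = 4.44e-06). It was lower in LKO than in FF mice under HFD (-1.88, adjusted p = 0.00504), with an interaction of -3.30 (adjusted p = 0.00186). Of 21 other stellate cell genes tested, Pparg was called higher in FF mice (1.41, adjusted p = 0.000833), and Steap4 was called higher with diet in LKO mice (1.30, adjusted p = 0.026) and in LKO against FF mice under HFD (1.05, adjusted p = 0.0402), beside 0.902% of all tested genes called higher in that comparison. Hepatocytes and fat also express Pparg and Steap4.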

How the data were processed

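The authors deposited RPKM values per gene symbol for each of the 18 liver libraries, made with HISAT2 2.0.4 and Partek on mm10 as listed in the submitters' processing notes. The annotation, the use of strand and the treatment of reads with several matches are not given in the sources used here. The labels name a small RNA library kit as well as a standard RNA-seq protocol. RPKM was used as deposited, and differences in the summed RPKM between mice (312292 to 397753) were left in. Reads were recovered from depth and length, as whole numbers within 0.15 for 28 of the 43 genes and as estimates for 15, and limit precision by counting error only.

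limma 3.58.1 in R 4.3.3 (linear models with a trend in the prior variance) was fitted to log2(RPKM + 1) of the 11090 genes whose mean reached 0.5 RPKM, with 1 coefficient for each of the 4 groups. Fold changes on this scale understate the change of low genes. P-values were two-sided and adjusted by Benjamini-Hochberg over all tested genes, and genes were called at an adjusted p under 0.05 and a fold of over 1.5, the thresholds of the study. Values for the 8 untested genes come from the fit with no filter. Single values were compared with exact two-sided permutation tests (scipy 1.17.1). Gene positions come from GENCODE M21 (GRCm38, the same build as mm10), and the script was tested on simulated data. The genes, their roles, the pathway lists and the markers were chosen with earlier results of these data known. Values per mouse are given for genes called in at least 1 of the 5 comparisons, for Col1a1, Col3a1, Acta2, Timp1 and Tgfb1, and for the 3 tested genes that changed most in each comparison. Up to 3 called genes that averaged 1 RPKM or more are named from each other list, and 1 gene that this rule names is not reported here.

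The alternatives were another pseudocount, filter, scaling, set of samples and call rule, the replicate number as a block, and each mouse left out in turn. The deposited replicate numbers are not said to mark shared animals or litters.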

Additional observations from a re-analysis of the deposited data

Results flagged for a closer look

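In all, 5 measurements lay far from the rest of their group of 4 mice, out of 60 groups examined for 15 genes, where chance gives about 1 in 20. Sparc in FF CD mouse 4 was 14.5 RPKM, while the other 3 mice had 10.5 to 11.0 RPKM. LKO CD mouse 3 was apart for 3 genes, with 9.57 RPKM for Sparc (others 14.8 to 15.4), 9.81 RPKM for Tgfbi (others 14.4 to 14.9) and 1.67 RPKM for Acta2 (others 0.946 to 1.05), so that it was low for the matrix genes and high for the actin. Nid1 in LKO CD mouse 2 was 1.82 RPKM, against 1.49 to 1.53 in the others. No cause of these was tested.

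The diet effect differed between genotypes for 3 genes by the interaction term in limma. The diet effect in LKO mice minus that in FF mice was -1.51 for Col1a1, -1.66 for Col3a1 and -0.77 for Tagln on the log2 scale. With each of the 18 mice left out in turn, Col3a1 was still called in 13 fits, Tagln in 6 and Col1a1 in 5. All 3 calls were lost with no filter, and that of Tagln also with the replicate block.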

How the results depend on the processing

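With HFD in FF mice 12 genes were called, 10 to 17 under the other pseudocount, filters, scalings and samples, 19 by the adjusted p alone, and 11 to 14 with a mouse left out. With HFD in LKO mice 0 were called under every alternative and 0 to 2 with a mouse left out, and under CD 0 between genotypes throughout. Under HFD 5 were called lower in LKO mice, 2 with no filter, 3 with the 2 groups compared alone, and 2 to 6 with a mouse left out. The 3 interaction calls became 0 with no filter, 5 after rescaling to the same sum, and 0 to 6 with a mouse left out. With no filter more genes are tested, and the cause of the other changes was not tested. In the fit with the replicate block, 14 genes were called with diet in FF mice, 0 in LKO mice, 4 between genotypes under HFD, 0 under CD and 4 for the interaction. The numbers were not taken as pairs, since same-numbered mice correlated at -0.11 to 0.27 and no comparison had every pair above 0.1. The log2 fold change of Tgfb1 between LKO CD and FF CD mice, which was not called, ran from a lowest value of -0.043 to a highest of 0.12 with a mouse left out, and was below 0 without FF CD mouse 2, FF CD mouse 3 or LKO CD mouse 4. Of the other values for single genes, 912 kept their direction and side of the threshold, 74 no longer passed it and 25 newly passed it. Depth limits Timp1 (1 to 20 reads per mouse) and Lox (0 to 15).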
